A study of Mus musculus with 4 samples.

Results

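Serpin genes were taken as the protein-coding autosomal genes whose RefSeq symbol begins with Serpin, and 62 of 20665 protein-coding autosomal genes met this rule. One further member on the X chromosome and 6 pseudogenes were left out. Liver DNA was analysed by RRBS, reduced representation bisulfite sequencing, which reads the cytosines of fragments cut by MspI and TaqaI, so that CpG-rich sequence is covered most. The groups were 2 libraries from Pnpla7+/+ mice (WT) and 2 from Pnpla7-/- mice (KO), all of strain C57BL6/N and 6 weeks old. Pnpla7 encodes a lysophospholipase, and the design sets liver methylation in mice lacking it against that of WT mice. The labels give neither the way the knockout allele was made nor the sex of the mice, and nothing in them says if replicate libraries were made from different animals. All p-values therefore rest on spread between these libraries, which may be technical. In the moderated quasi-binomial model described with the processing, the spread of a feature is drawn towards that of all features. It is never set below counting error. The tissue is whole liver, in which a change within cells and a change in the mix of cells cannot be told apart. Where a genotype has a pair of values, replicate 1 comes first, and 4 values in a row are in the order WT and then KO.

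Most serpins stop serine proteases by a one-way trap: the protease cuts an exposed loop of the serpin, and the loop folds into the body of the serpin and carries the distorted protease with it. Hepatocytes release many of them into plasma, where they hold back clotting, fibrin breakdown, complement and neutrophil elastase. Members of clade B mostly stay inside cells, and a few serpins inhibit nothing and carry hormones or help fold collagen. DNA methylation at CpGs is usually absent from CpG-dense gene starts and from the regulatory DNA of genes active in a tissue, and high elsewhere. The 62 genes were split by a list into 15 liver-secreted serpins and 47 other serpins, of which 28 belong to clade B. Serpins sit in clusters: chromosome 12 holds 23 of them, chromosome 13 holds 16 and chromosome 1 holds 14.

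Promoter sequences show how little CpG-dense DNA this family has, and they are taken from RefSeq on GRCm38.p6, whose coordinates are those of mm10. They run from 250 bases before to 50 bases after an annotated start, 5′ to 3′ along the gene, and every CG is in capitals. The table holds 53 of the 62 members. Shown first are liver-secreted members with 3 to 6 CGs, since the results turn on the Serpina1 family, Serpina3n and Serpinf2.
Serpina1a, chr12:103863570-103863869, minus strand: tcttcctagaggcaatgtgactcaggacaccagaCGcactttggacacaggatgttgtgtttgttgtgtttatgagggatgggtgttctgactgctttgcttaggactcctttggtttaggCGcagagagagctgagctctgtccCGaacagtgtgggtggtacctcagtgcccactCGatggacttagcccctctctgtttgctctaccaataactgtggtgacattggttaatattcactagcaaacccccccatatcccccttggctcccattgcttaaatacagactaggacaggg
Serpina1e, chr12:103956848-103957147, minus strand: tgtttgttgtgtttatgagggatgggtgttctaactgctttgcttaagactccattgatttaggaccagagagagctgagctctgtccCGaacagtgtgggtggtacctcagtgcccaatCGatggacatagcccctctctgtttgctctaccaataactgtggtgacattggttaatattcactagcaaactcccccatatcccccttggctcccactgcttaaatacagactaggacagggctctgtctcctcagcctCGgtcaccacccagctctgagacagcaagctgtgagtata
Serpina3n, chr12:104406458-104406757, plus strand: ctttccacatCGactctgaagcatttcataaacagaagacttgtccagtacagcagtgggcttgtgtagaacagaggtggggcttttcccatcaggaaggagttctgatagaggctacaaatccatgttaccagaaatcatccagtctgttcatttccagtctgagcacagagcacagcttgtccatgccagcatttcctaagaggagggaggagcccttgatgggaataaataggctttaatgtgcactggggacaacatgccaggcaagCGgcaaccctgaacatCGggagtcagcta
Serpinf2, chr11:75439452-75439751, minus strand: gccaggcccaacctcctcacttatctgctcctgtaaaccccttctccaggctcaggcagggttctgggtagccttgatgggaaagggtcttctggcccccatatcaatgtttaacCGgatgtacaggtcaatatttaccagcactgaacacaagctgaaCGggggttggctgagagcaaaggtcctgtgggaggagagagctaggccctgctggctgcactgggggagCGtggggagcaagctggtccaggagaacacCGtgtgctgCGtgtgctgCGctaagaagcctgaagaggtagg
Next are 5 other serpins: Serpina3c, which is 89.9% identical to Serpina3n over this stretch, and 4 promoters with some of their CpGs read in every library.
Serpina3c, chr12:104153823-104154122, minus strand: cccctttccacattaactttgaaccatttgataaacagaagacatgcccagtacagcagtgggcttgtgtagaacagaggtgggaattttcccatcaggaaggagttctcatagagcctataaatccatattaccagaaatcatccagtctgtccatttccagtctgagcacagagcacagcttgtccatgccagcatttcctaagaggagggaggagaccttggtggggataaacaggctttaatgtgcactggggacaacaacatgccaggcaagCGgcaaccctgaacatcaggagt
Serpina3g, chr12:104235897-104236196, plus strand: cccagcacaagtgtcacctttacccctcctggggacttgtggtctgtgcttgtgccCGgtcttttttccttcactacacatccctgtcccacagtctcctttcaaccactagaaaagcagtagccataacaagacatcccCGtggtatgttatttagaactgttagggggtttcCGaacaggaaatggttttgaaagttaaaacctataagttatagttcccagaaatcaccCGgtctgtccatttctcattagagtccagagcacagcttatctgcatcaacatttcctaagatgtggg
Serpina3a, chr12:104112474-104112773, plus strand: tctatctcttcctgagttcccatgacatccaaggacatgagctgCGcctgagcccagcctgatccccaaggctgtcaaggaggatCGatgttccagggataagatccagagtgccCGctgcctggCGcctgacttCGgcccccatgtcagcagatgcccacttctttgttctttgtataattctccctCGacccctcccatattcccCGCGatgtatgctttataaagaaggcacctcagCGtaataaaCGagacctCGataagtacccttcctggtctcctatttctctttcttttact
Serpinb6a, chr13:34002745-34003044, minus strand: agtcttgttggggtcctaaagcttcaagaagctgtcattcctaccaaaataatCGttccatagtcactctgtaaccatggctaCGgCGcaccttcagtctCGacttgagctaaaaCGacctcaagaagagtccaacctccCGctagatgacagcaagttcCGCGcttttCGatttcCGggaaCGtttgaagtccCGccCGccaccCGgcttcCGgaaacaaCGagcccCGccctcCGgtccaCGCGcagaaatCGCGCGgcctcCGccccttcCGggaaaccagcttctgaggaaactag
Serpine2, chr1:79858616-79858915, minus strand: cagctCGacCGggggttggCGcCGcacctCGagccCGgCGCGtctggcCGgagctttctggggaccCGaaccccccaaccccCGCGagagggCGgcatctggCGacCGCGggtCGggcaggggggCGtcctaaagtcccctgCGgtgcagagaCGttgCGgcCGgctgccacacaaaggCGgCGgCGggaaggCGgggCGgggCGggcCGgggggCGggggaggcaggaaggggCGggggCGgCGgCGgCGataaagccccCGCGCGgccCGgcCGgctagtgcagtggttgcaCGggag

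The serpin promoters held a median of 3 CGs per 300 bases, against 7 over all 27025 promoters of the table. Promoters with 10 or more CGs made up 6 of 53 among serpins, or 11.3%, against 44.0% of all promoters. None of the 10 liver-secreted promoters in the table reached 10, and their range was 2 to 6. The Serpina1a, Serpina1b, Serpina1c and Serpina1d promoters were 85.2% to 91.4% identical in pairs, and 63.9% to 69.3% identical to that of Serpina1e. The letters GTTAAT, part of the site of the hepatocyte factor HNF1, were searched on both strands. They occurred in all 5 of these promoters, in 5 of 10 liver-secreted promoters, in 5 of 43 other serpin promoters and in 7.22% of all promoters. TATAAA, the TATA box, occurred in 0 of 10 liver-secreted promoters, in 13 of 43 others and in 14.2% of all. CCAAT occurred in 6 of 10 and in 13 of 43, against 38.0% of all. A match describes letters in this window and does not show binding.

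Of the 53 serpin promoters, 7 held a CpG with at least 10 reads in every library, the minimum used for all levels here. Of these, 4 with 15 or more CGs were nearly unmethylated at their analysed CpGs. Serpine2, which encodes an inhibitor of thrombin and urokinase, has 41 CGs, and 14 analysed CpGs read 0.838% and 0.992% in WT and 0.224% and 0.174% in KO. Serpinb6a, which encodes an intracellular inhibitor of cathepsin G, has 25 CGs, and 11 analysed CpGs read 0% and 1.54% in WT and 0.623% and 0.289% in KO. The 0% rests on 246 reads, where a count of 0 allows a level of up to 1.22%. In Serpini1, which encodes neuroserpin, 5 CpGs read 0.709%, 0%, 0.935% and 0%. In Serpinh1, which encodes a collagen chaperone, 2 CpGs 33 and 39 bases past the start read 3.23%, 7.5%, 1.35% and 2.6%. No CpG of this promoter before the start had enough reads. The one 168 bases before it read 16.7%, 0%, 44.4% and 0% on 5 to 9 reads.

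The other 3 promoters, with 3 to 11 CGs, differed from each other. In Serpina1e, 2 CpGs 129 and 161 bases before the start read 15.4% and 1.79% in WT and 13.2% and 25% in KO, on 26 to 56 reads per library. The genotypes overlapped there. In Serpina3a, with 11 CGs, 4 CpGs read 89.7% and 93.5% in WT and 96.0% and 92.0% in KO, so this promoter was almost fully methylated in all libraries. In Serpina3g, 2 CpGs read 45.7% and 48.1% in WT and 68.0% and 62.9% in KO. Both KO libraries lay above both WT libraries at each of these 2 CpGs, by 24.8 percentage points 76 bases before the start and by 12.3 points 18 bases before it. The unadjusted p was 0.0224 and 0.244 and the adjusted p 0.739 for each, in the moderated quasi-binomial model described with the processing. Serpina3g was singled out after its values were seen.

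Coverage set which members could be described. Of the 62 genes, 39 had at least 3 analysed CpGs in the gene and 5 kb on either side, here called the gene region; 10 had 1 or 2, and 13 had none. Liver-secreted serpins were better covered, with 14 of 15 at 3 or more and a median of 1.13 listed CpGs per kb. The other serpins had 25 of 47 and 0.455 per kb, and clade B 11 of 28 and 0.353 per kb. On chromosome 12, 18 of 23 members had 3 or more, on chromosome 13 there were 8 of 16 and on chromosome 1 there were 5 of 14. The regions held 721 of 1566008 analysed autosomal CpGs, 14 of them in more than 1 serpin region. Median depth at these CpGs was 20 and 25 reads in WT and 24 and 25 in KO. A CpG with 5 of 10 reads methylated has a 95% interval of 18.7% to 81.3% (exact, Clopper-Pearson), which covers counting error only, since the reads were amplified. Copies within the Serpina1, Serpina3, Serpinb1, Serpinb3, Serpinb6 and Serpinb9 families may share reads, so single-gene values of these families are uncertain.

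Over the whole series, the files held 50413170 to 60535892 reads over cytosines per library. Levels across analysed CpGs correlated at 0.975 to 0.978 (Pearson) between libraries, and across serpin CpGs at 0.964 to 0.975, with CpGs not being independent. Marker genes were read in windows of 1 kb on either side of a gene start: of the hepatocyte markers 4 of 10 had such a window, and all 4 had a WT mean under 20% (median by library 10.9% to 21.4%). Of all windows, 12216 of 14383 were under 20%, with library medians of 1.35% to 1.38%, so this count does not set the hepatocyte markers apart. Of the leukocyte and Kupffer markers 4 of 8 had one, with medians of 82.2% to 87.0%. Cholangiocyte markers were at 10% to 16.8% and stellate cell markers at 12.3% to 15.9%. No window of these lists was called between genotypes, and no endothelial marker had a window.

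Liver-secreted serpins had intermediate methylation, and 15 of 25 other serpin regions lay above 80% or below 20%. The 14 liver-secreted regions had WT means from 33.3% to 72.1%, with a median of 53.1%. Among the other serpins, 12 were above 80%, 10 between 20% and 80% and 3 below 20%, with a median of 79.3%. The 11 clade B regions had a median of 81.9%. Over all 17784 gene regions the median was 34.6%, and 61.9% of them lay between 20% and 80%. These levels are a description of the list, with no test across genes.

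**Figure D1:**
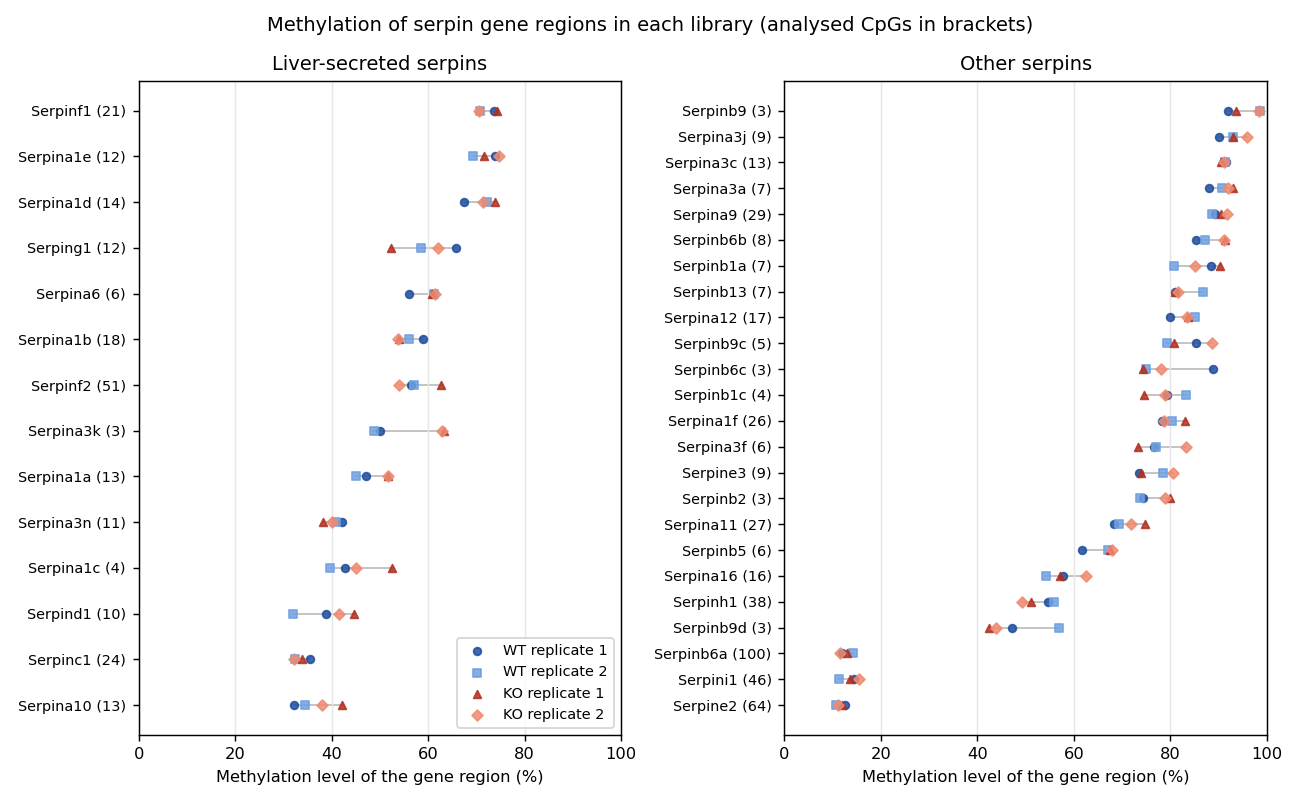
Methylation level (percent of reads methylated, x axis) of serpin gene regions with at least 3 analysed CpGs (1 of the 39 is not drawn), ordered by WT mean, with 1 point per library and a grey line over the range of the 4 libraries. Liver-secreted regions spread from 33.3% to 72.1% in WT mean, while 12 other regions lie above 80% and Serpine2, Serpini1 and Serpinb6a lie below 20%.

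The order of the classes depends on whether CpGs or genes are averaged. Averaged over 209 CpGs, liver-secreted serpins were at 53.9% and 54.2% in WT and 55.7% and 54.2% in KO. Averaged over 512 CpGs, the other serpins were at 50.5% and 50.8% in WT and 51.7% and 52.2% in KO. The liver-secreted class was thus higher by 3.18 percentage points as the mean of the libraries. Averaged over genes it was lower by 16.8 points, at 53.5% against 70.2%. Serpine2, Serpini1 and Serpinb6a hold 210 of the 512 CpGs of the other class, and without them the liver-secreted class was lower by 21.1 points.

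Among CpGs in sparse surroundings, those with fewer than 5 other listed CpGs within 250 bp, the classes were apart in every library. The 142 sparse CpGs of liver-secreted serpins averaged 57.0% and 57.7% in WT and 58.7% and 58.8% in KO. The 217 sparse CpGs of other serpins averaged 73.0%, 73.3%, 75.5% and 76.2%. Sparse CpGs of all gene regions averaged 77.0% and 76.7% in WT and 77.5% and 77.6% in KO. Both KO libraries were thus higher there too. Of all liver-secreted CpGs, sparse or not, 38.3% lay between 20% and 80%, against 21.3% in other serpins and 14.7% in all gene regions. Among sparse CpGs alone these shares were 38.0%, 36.9% and 29.2%, so the 2 serpin classes were near each other. Sparse CpGs below 20% made up 22.5% in liver-secreted serpins, 6.45% in other serpins and 6.1% in all gene regions. Within gene bodies liver-secreted serpins were at 45.8% to 48.4%, and in the 5 kb flanks at 62.1% to 65.4%. Other serpins were at 52.0% to 53.5% in bodies and 47.5% to 49.9% in flanks, so the order of the classes turned in the flanks.

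Position along the gene separated the classes most from 1 to 5 kb past the start. There, 40 CpGs in 7 liver-secreted serpins averaged 28.8% to 37.8% over the libraries, and 60 CpGs in 10 other serpins averaged 77.1% to 79.9%. Most of these 40 CpGs lie in Serpinf2, so the liver-secreted average is largely that of Serpinf2. In the first 1 kb, 4 CpGs of 2 liver-secreted serpins were at 3.57% to 8.86%, and 109 CpGs of 7 other serpins at 6.19% to 7.05%. In the 1 kb before the start the order was the opposite, with 47.9% to 54.7% in 12 liver-secreted CpGs and 12.8% to 14.6% in 52 others. All 12 lie in Serpina1a, Serpina1b and Serpina1e, and most of the 52 in Serpini1, Serpine2 and Serpinb6a. From 5 kb before the start to 1 kb before it, liver-secreted CpGs were at 63.9% to 64.3% and others at 58.1% to 61.8%. Few genes stand behind each of these averages, and genes without a table start are not in them.

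**Figure D2:**
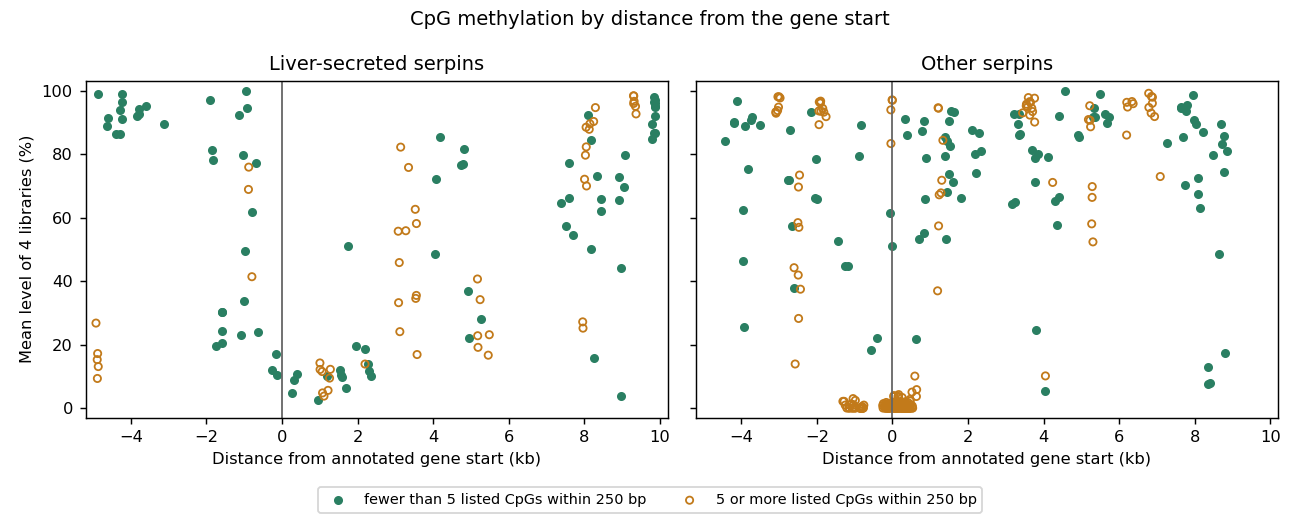
Mean methylation of the 4 libraries (y axis, percent) at each analysed CpG against its distance from the annotated gene start in kb (x axis, positive into the gene), for liver-secreted and other serpins; filled points are CpGs with fewer than 5 listed CpGs within 250 bp. Low points of liver-secreted serpins continue to several kb past the start, where other serpins average 77.1% to 79.9%. Most liver-secreted points there are of Serpinf2.

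Among the inhibitors of clotting, Serpinc1, which encodes antithrombin, lies on chromosome 1 from 160978583 to 161002543. Its region, with 24 CpGs, read 35.6% and 32.5% in WT and 33.9% and 32.3% in KO, with the genotypes overlapping. Within it, 6 CpGs of the tile from 160980001 to 160981000 read 11.7% to 16.3%, and 3 CpGs of the tile from 161000001 to 161001000 read 91.5% to 98.4%. The gene thus spanned low and high methylation that its region level averages. Serpind1, which encodes heparin cofactor II, read 38.8% and 31.9% in WT and 44.6% and 41.5% in KO over 10 CpGs. Serpina10, which encodes the protein Z-dependent inhibitor of factor Xa, read 32.2% and 34.4% in WT and 42.2% and 37.9% in KO over 13 CpGs. In both genes each KO library lay above each WT library, by 7.71 points on average in Serpind1 and 6.77 in Serpina10. The unadjusted p was 0.117 and 0.183 and the adjusted p 0.996 for each (moderated quasi-binomial model).

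Serpinf2, which encodes alpha-2-antiplasmin, the main plasma inhibitor of plasmin, lies on the minus strand of chromosome 11 from 75431736 to 75439501. Its 51 CpGs read 56.5% and 57.0% in WT and 62.6% and 53.9% in KO, so the KO libraries lay on either side of WT. Serping1, which encodes the C1 inhibitor of complement and kallikrein, read 65.7% and 58.6% in WT and 52.4% and 62.1% in KO over 12 CpGs. The genotypes overlapped there too.

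The Serpina1 genes encode the mouse forms of alpha-1-antitrypsin, which blocks neutrophil elastase, and they lie close together on chromosome 12. Their levels were unequal. Serpina1c, with 4 CpGs, read 42.9% and 39.6% in WT and 52.5% and 45.1% in KO. Serpina1a, with 13, read 47.2% and 45.2% in WT and 51.6% and 51.6% in KO. Both were higher in each KO library than in each WT library, by 7.59 and 5.43 points on average. Serpina1b, with 18 CpGs, was lower in KO, with 58.9% and 56.0% in WT and 54.0% and 53.9% in KO, an average of -3.49 points. Serpina1d read 67.4%, 72.1%, 73.8% and 71.3% over 14 CpGs, and Serpina1e read 73.9%, 69.2%, 71.7% and 74.7% over 12. In Serpina1d and Serpina1e the genotypes overlapped. The unadjusted p was 0.191 in Serpina1a, 0.256 in Serpina1c and 0.298 in Serpina1b, and none passed the adjusted threshold.

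The Serpina3 genes encode antichymotrypsin-like inhibitors whose number is expanded in mice. Serpina3n read 42.1% and 41.0% in WT and 38.2% and 40.1% in KO over 11 CpGs. Its start window, with 3 CpGs, read 10.7%, 5.56%, 7.48% and 11.8%, while 3 CpGs upstream of the gene, in the tile from 104402001 to 104403000, read 87.3% to 92.7%. Serpina3c, whose promoter is the closest to that of Serpina3n among the family members in the table, read 91.6% and 91.2% in WT and 90.5% and 91.2% in KO over 13 CpGs. Serpina3k had the largest region difference among the 39, on few reads. It rests on 3 CpGs past the end of the gene with the higher coordinate, with 40 to 78 reads per library, and it read 50% and 48.7% in WT and 63.3% and 63.0% in KO. The difference of 13.8 points had an unadjusted p of 0.178 (adjusted p = 0.996, moderated quasi-binomial model). The CpG at 104346124 read 56.2% and 60.0% in WT and 80% and 94.4% in KO, while the one at 104349949 read 100% in each library. In Serpina3m both analysed CpGs were lower in KO, with 80% and 73.3% in WT against 54.5% and 61.5% in KO at 104394544, on 10 to 15 reads.

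Serpina6, which encodes the corticosteroid carrier of plasma, read 56.0% and 61.2% in WT and 60.8% and 61.5% in KO over 6 CpGs. Serpinf1, which encodes pigment epithelium-derived factor, inhibits no protease and lies next to Serpinf2; it read 73.6% and 70.7% in WT and 74.3% and 70.5% in KO over 21 CpGs. Neither separated the genotypes.

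Among other serpins the lowest regions held most of their CpGs in 1 nearly unmethylated tile each. These tiles of 1 kb held 52 CpGs in the Serpine2 region, 28 in that of Serpini1 and 62 in that of Serpinb6a. Their WT means were 1.12%, 0.342% and 0.63%. The tile of Serpini1 overlaps the neighbouring gene Pdcd10 and not Serpini1, and that of Serpinb6a also overlaps Ripk1. Over all members, 9 regions overlap a protein-coding gene outside the family. Serpine2 read 12.7% and 10.8% in WT and 12% and 11.2% in KO over 64 CpGs. Serpini1 read 14.5% and 11.3% in WT and 13.7% and 15.5% in KO over 46, and Serpinb6a 11.9% and 14.2% in WT and 12.9% and 11.5% in KO over 100. The highest with at least 10 CpGs were Serpina3c, Serpina9 and Serpina12. Serpina9, expressed in germinal centre B cells, read 89.2% and 88.6% in WT and 90.5% and 91.6% in KO over 29 CpGs. Serpina12, which encodes the adipokine vaspin, read 80% and 85.2% in WT and 83.7% and 83.5% in KO over 17. Serpinh1 had the smallest p of the 39 regions. Its 38 CpGs read 54.6% and 55.9% in WT and 51.1% and 49.2% in KO, a mean of 55.3% ± 0.947 against 50.1% ± 1.31 (SD, n = 2 each; adjusted p = 0.996, moderated quasi-binomial model). Serpina11 read 68.4% and 69.3% in WT and 74.7% and 71.9% in KO over 27 CpGs, and Serpina3j 90.2% and 92.9% in WT and 92.9% and 95.9% in KO over 9. In Serpinh1, Serpina11, Serpina9 and Serpina3j the genotypes did not overlap, and the differences were -5.14, 4.47, 2.15 and 2.9 points.

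At the level of whole regions no serpin passed the threshold between genotypes. To be called, a feature had to differ by 10 points or more with an adjusted p under 0.05, and 0 of 39 serpin regions did so in the moderated quasi-binomial model, with 0 of them at an unadjusted p under 0.05. Over all 17781 tested regions 0.0% were called, and 4.34% had an unadjusted p under 0.05. With limma, run on log2 ratios, 0 of 39 were called, and 8 had an unadjusted p under 0.05, against 4.93% of all regions. The smallest of these was Serpina3k, with an adjusted p of 0.549 (limma, which gives shallow and deep libraries equal weight). Levels were higher in KO in 26 of the 39 serpin regions and lower in 13, with a median difference of 1.6 points. Of all regions 48.3% were higher, with a median of -0.07 points. The comparison is of unlike regions, with a median WT level of 69.1% in serpin regions and 34.6% in all. Sparse CpGs of all gene regions were higher in KO too, at 77.0% and 76.7% in WT and 77.5% and 77.6% in KO. Whether the excess is particular to serpins was not tested. The 14 liver-secreted regions were higher in 10 and lower in 4, with a median of 2.12 points, and the 25 other serpin regions were higher in 16 and lower in 9, with a median of 1.5. Both KO libraries lay above both WT libraries in 12 serpin regions and below them in 6, against 15.9% and 16.9% of all regions. Neighbouring serpins share clusters and some CpGs, so these counts are not of independent genes.

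The class averages moved little between genotypes. The liver-secreted mean was 54.1% ± 0.182 for WT and 54.9% ± 1.08 for KO (SD, n = 2 each), and KO replicate 2 lay within the WT range (exact permutation test, two-sided p = 0.667). The mean of other serpins was 50.7% ± 0.221 in WT and 52.0% ± 0.327 in KO, with both KO libraries above both WT libraries (exact permutation p = 0.333, two-sided, the smallest that 2 against 2 allow). The gap between the classes was 3.44 and 3.38 points in WT and 3.95 and 1.95 in KO, which overlapped (exact permutation p = 1.0). Weighted by reads, the difference of the other serpins was -0.159 points, so its direction depends on the weights. The direction of the difference in the gap, -0.464 points, turned to 0.533 without KO replicate 2.

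At known or assumed gene starts, 13 serpins had a window of 1 kb on either side with at least 3 analysed CpGs. Where no start was annotated, as in Serpina10, the window lay at the gene end with more listed CpGs, which may not be the start. In the moderated quasi-binomial model 0 of the 13 were called, against 0.0419% of 14319 windows. With 1 of 13 at an unadjusted p under 0.05, against 6.49% of all windows, the count was near the background, and limma called none and had 0 of 13 below it, against 5.44%. That window was of Serpini1, which read 11.7% and 8.06% in WT and 11.9% and 13.0% in KO over 27 CpGs (adjusted p = 0.756). Serpina1a, with 3 CpGs, read 68.8% and 59.0% in WT and 76.0% and 75% in KO, and Serpina1b, with 6, read 59.0% and 53.0% in WT and 52.9% and 49.9% in KO. Both windows were far more methylated than that of Serpina3n in every library, but their CpGs lie at unlike positions. Those of Serpina1a and most of those of Serpina1b lie before the start, and those of Serpina3n lie 256 to 404 bases past it. The Serpina1b CpG 963 bases past the start averaged 2.5% over the libraries. The windows therefore cannot show whether these genes differ at like distances from the start.

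In tiles of 1 kb, 1 of 94 serpin tiles was called, higher in KO, against 0.0901% of 159884 tiles in either direction and 0.0694% higher and 0.0206% lower in KO. At an unadjusted p under 0.05 there were 7 of 94 serpin tiles, against 6.31% of all, and in limma 4, against 5.53%. Both KO libraries lay above both WT libraries in 22 of the 94 and below in 15, against 19.5% and 14.9% of all tiles. The median difference was 0.726 points over serpin tiles, 1.67 in the 33 tiles of liver-secreted serpins and 0.515 in the 61 of others, against 0.17 over all.

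**Figure D3:**
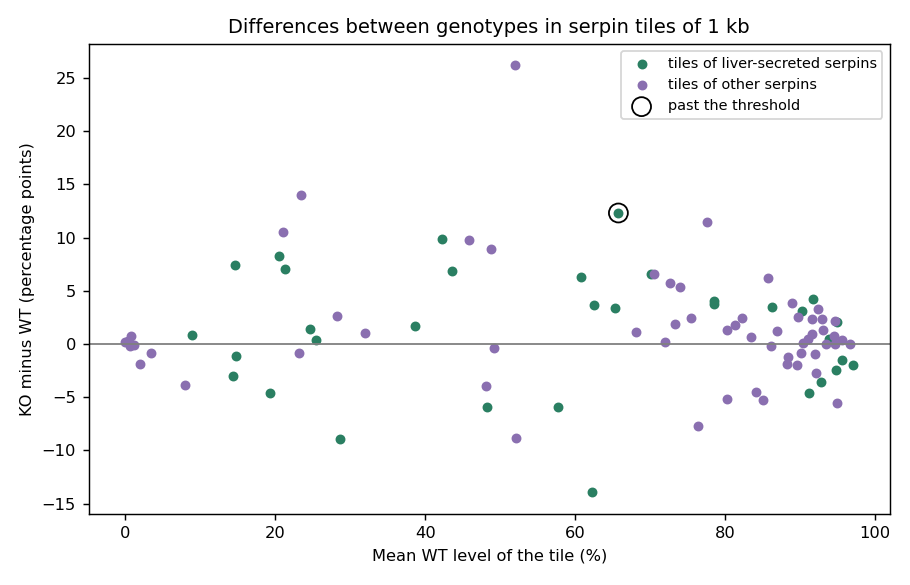
Difference between genotypes (KO minus WT, percentage points, y axis) against mean WT level (percent, x axis) for the 94 serpin tiles, coloured by class, with a ring around the tile past the threshold. The ringed tile, at 65.8% in WT, is 12.3 points higher in KO; a tile between Serpina11 and Serpina9 differs more, by 26.2 points, on fewer reads, and did not pass.

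The called tile lies at the 3′ end of Serpinf2, on chromosome 11 from 75431001 to 75432000. It read 66.5% and 65.0% in WT and 81.0% and 75.1% in KO, on 436 to 617 reads per library. Means were 65.8% ± 1.05 in WT and 78.1% ± 4.17 in KO (SD, n = 2 each; difference 12.3 points, adjusted p = 0.0227, moderated quasi-binomial model). All 11 analysed CpGs of the tile lie beyond the annotated gene end, by 189 to 525 bases, so the promoter printed above is not the sequence measured. Of the 11, 9 were higher in KO, and at 7 both KO libraries lay above both WT libraries. The CpG at 75431498, 238 bases beyond the end, differed most and read 65.2% and 49.3% in WT and 92.3% and 81.4% in KO. Without it the tile read 66.8% and 67.4% in WT and 79.1% and 74.2% in KO, a difference of 9.57 points. The call was lost at a coverage minimum of 20 reads (adjusted p = 0.0642), in limma (adjusted p = 0.893) and whenever 1 library was left out, with differences of 9.37 points without KO replicate 1 to 15.3 without KO replicate 2.

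Single CpGs within the tile differed in level. The 2 CpGs nearest the gene end were the lowest: the one at 75431539 read 16.4% and 14.7% in WT and 42.7% and 26.9% in KO, and the one at 75431547 read 18.8% and 22.7% in WT and 38.1% and 29.0% in KO. At 75431475 the levels were 71.4% and 70.5% in WT and 85.1% and 91.5% in KO. The farthest CpG, 525 bases beyond the end, went against the tile, with 100% and 97.0% in WT and 88.2% and 93.3% in KO. No single CpG of the tile had an adjusted p under 0.05 in the moderated quasi-binomial model.

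Elsewhere in the region, tiles went both ways. The adjacent tile from 75430001 to 75431000, farther from the gene, read 97.2% and 96.9% in WT and 95.9% and 94.4% in KO. The tile from 75426001 to 75427000, also in the flank of Serpinf1, read 90.8% and 92.6% in WT and 96.3% and 95.5% in KO, so both KO libraries lay above both WT libraries as in the called tile (adjusted p = 0.836). Inside the gene, the tile from 75435001 to 75436000 went the other way, with 56.5% and 67.9% in WT and 53.8% and 42.6% in KO. Both KO libraries lay below both WT libraries, and the difference of -13.9 points had an adjusted p of 0.553. The tile from 75436001 to 75437000 read 59.5% and 56.0% in WT and 59.4% and 44.3% in KO, with KO replicate 2 lowest in both tiles. The tile from 75438001 to 75439000 read 6.88% and 10.9% in WT and 10.1% and 9.41% in KO. Its CpGs lie 1002 to 1278 bases past the start, and no analysed CpG lay nearer to the start. In all 4 libraries, levels were thus low in this tile, intermediate in the body tiles from 75435001 and 75436001 and nearly full in the tile from 75430001. The CpGs of the called tile nearest the gene end lay lower than these body tiles, so the rise was not even. The region level of Serpinf2, with its KO libraries on either side of WT, sums these opposed tiles.

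**Figure D4:**
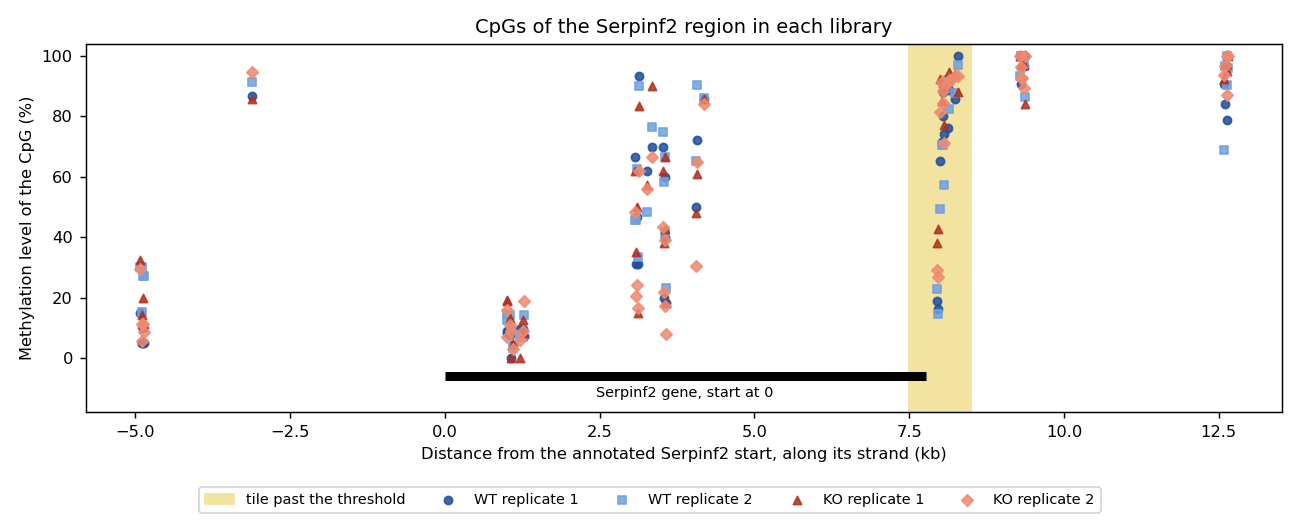
Methylation (percent, y axis) of each analysed CpG of the Serpinf2 region in each library against distance from the annotated start along the strand of the gene in kb (x axis); the black bar is the gene and the shaded band the tile past the threshold. In the band, KO points lie above WT points at most CpGs. The adjacent tile farther from the gene reads 94.4% to 97.2% in the 4 libraries.

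The other 4 serpin tiles with the smallest p did not pass. A tile on chromosome 12 from 103992001 to 103993000, between Serpina11 and Serpina9, read 45.2% and 58.7% in WT and 77.0% and 79.2% in KO on 42 to 75 reads (difference 26.2 points, adjusted p = 0.353, moderated quasi-binomial model). Its CpG at 103992611 read 10% and 53.3% in WT and 84.6% and 81.8% in KO, on 10 to 15 reads. A tile in Serpina11 from 103985001 to 103986000 read 46.2% and 45.5% in WT and 57.9% and 53.4% in KO (adjusted p = 0.668). A tile in Serpini1 from 75558001 to 75559000 read 51.0% and 46.6% in WT and 56.2% and 59.2% in KO (adjusted p = 0.726), and its 5 CpGs also lie in the start window named above. The remaining one is the tile of the Serpinf2 body, lower in KO.

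Of 721 serpin CpGs 620 could be tested, since the others were fully methylated or unmethylated in all libraries, and 0 were called in the moderated quasi-binomial model, against 0.000732% of 1229673 CpGs. At an unadjusted p under 0.05 there were 25 of 620, against 3.82% of all. limma also called 0 and had 30 below it, against 5.21% of all. With another prior for the spread, described with the processing, 1 serpin CpG was called, that at 75431498 beyond Serpinf2, against 0.00984% of all CpGs. A count of 0 at this depth does not show that single CpGs were alike. The next CpGs by p were at 75431475 and 75431539 in the same tile.

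Proteases and partners of serpins were taken as a list of 27 genes, of which 26 had a region with at least 3 analysed CpGs. None was called, and none had an unadjusted p under 0.05, with 15 higher and 11 lower in KO and a median difference of 0.419 points, against -0.07 over all regions. Tmprss6, which encodes the hepatocyte protease matriptase-2, had the smallest p, and read 54.5% and 54.5% in WT and 58.7% and 57.4% in KO (adjusted p = 0.996). Proz, the partner of Serpina10, read 47.9% and 50.2% in WT and 45.4% and 46.6% in KO. Pros1, which encodes protein S, read 36.0% and 36.9% in WT and 30.1% and 35.6% in KO. Lrp1, which encodes a receptor that clears serpin-protease complexes, read 63.3% and 61.4% in WT and 61.2% and 60.9% in KO. In all 4 the genotypes did not overlap, and this held for 7 of the 26 regions with KO above WT and 4 with KO below, against 15.9% and 16.9% of all regions. The partner regions had a median WT level of 55.5%, near that of the liver-secreted serpins, and 22 of 26 lay between 20% and 80%.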

How the data were processed

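Per the labels' protocols, liver DNA was digested by TaqaI and then MspI, built into libraries, bisulfite converted and amplified. The authors deposited, for each of the 4 libraries, a track of methylation levels, given as fractions that are negative where the cytosine is on the reverse strand, and one of read coverage signed likewise, on mm10 and from the program GBSA per the file headers. The submitters' processing notes name BWA 0.7.12 and MACS; what each did is not given in the sources used here. Multiplying level by depth gave whole methylated reads everywhere (100% of positions, tolerance 1e-06), so read counts were used. Both strands of a CpG were summed, and positions were checked against RefSeq promoter sequence (GRCm38.p6).

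Analysed CpGs had at least 10 reads in every library. Reads were summed over gene regions (5 kb either side), windows of 1 kb around starts, and 1-kb tiles, each with at least 3 such CpGs. The start was that of the promoter table, or else the gene end with more listed CpGs. Exons, introns and UTRs were not analysed here, and 1 member counted in the totals is not reported by name. The test was a moderated quasi-binomial model: Pearson dispersions were shrunk with limma 3.58.1 (squeezeVar), those under 1 were set to 1, and a two-sided F test was followed by Benjamini-Hochberg adjustment over all features of a kind. It was tested on simulated data with 200 changed features of each kind. There it found 5.97% of tiles and 34.3% of gene regions changed by 10 points, and failed to find changed single CpGs. Of the tiles it called, 13.0% were unchanged. Another prior was estimated only where each library had a binomial variance of 5 or more. Differences are means of library levels, KO minus WT. limma on log2 ratios added 1 to each count. R 4.3.3, pandas 2.3.3, scipy 1.17.1, Biopython 1.88 and matplotlib 3.10.9 were used.

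Members and lists were chosen with earlier results of these data known. By a fixed rule the text names called features, liver-secreted serpins with 3 or more CpGs, and of the others the 5 regions with the smallest p and the 3 highest and 3 lowest with at least 10 CpGs. It also names up to 4 partners by p and the 5 tiles with the smallest p. Serpina3g and Serpina3m and single CpGs were added after values were seen. Deviations of same-numbered libraries correlated at -0.00861 over tiles and -0.00381 over regions, so the replicate numbers were not taken to pair libraries.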

Additional observations from a re-analysis of the deposited data

How the results depend on the processing

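No alternative called a serpin region or start window. The 1 called serpin tile became 0 at a coverage minimum of 20 reads, at a difference of at least 20 points, in limma, and in each run without 1 library (0 to 0; adjusted p 0.904 to 0.939). Such runs have 1 residual degree of freedom and assume that the lone library varies like the other genotype. With the other prior 1 serpin CpG was called. Over the genome, the 144 tiles became 55 at 20 reads, 72 at 20 points, 0 in limma and 0 to 2 without 1 library. The 9 CpGs became 0 at a minimum of 5 reads, 121 with the other prior, 214 in limma and 0 without any 1 library. The 6 start windows became 1 at 20 reads, and 0 at 20 points, in limma and without any 1 library. Gene regions gave 0 to 1 without 1 library, the 1 without KO replicate 2. The shares over the genome given beside the serpin counts therefore hold for this model and prior.

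The replicate block, with the replicate number as a second term, called 0 serpin tiles and 0 tiles, 0 windows, 0 regions and 0 CpGs over the genome. In the class averages the block gave the same differences, 0.859 points for liver-secreted serpins, 1.32 for the others and -0.464 for their gap, since it averages the same 4 libraries.

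For liver-secreted serpins the difference between genotypes was 1.98 points at 20 reads, 2.74 averaged over genes and -0.0951 without flanks. For other serpins it was 0.62 at 20 reads, -0.159 weighted by reads, 0.542 over genes, 0.87 without flanks, 0.908 with 2 kb flanks, 2.67 in sparse CpGs and 1.9 without Serpine2, Serpini1 and Serpinb6a. The difference in the gap, -0.464, was 1.36 at 20 reads, 1.32 weighted by reads, 2.2 over genes, 0.0697 with 2 kb flanks and 0.144 with a wider liver-secreted list. Without 1 library it ran from -1.46 (without KO replicate 1) to 0.533 (without KO replicate 2), and the liver-secreted difference from 0.0935 to 1.62 (the same libraries). The gap itself, 3.18, was 2.22 at 5 reads, 10.6 at 20 reads, 6.26 weighted by reads, -16.8 over genes, -5.55 without flanks, -0.22 without the multigene families and 12.5 with a wider liver-secreted list. It was -16.5 in sparse CpGs and -21.1 without Serpine2, Serpini1 and Serpinb6a; both of these were chosen after seeing the data.

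Of 228 values of the 28 named regions and tiles under alternatives that kept all libraries, 12 had the opposite direction; the cause was not tested. At 20 reads these were Serpina12 (-0.764), Serpina1e (-0.316) and Serpinb6a (0.0132), and at 5 reads Serpine2 (0.419) and Serpinf1 (-1.21). Without flanks they were Serpina3c (1.78), Serpina3n (1.51), Serpine2 (0.239) and Serpinf2 (-2.87), and with 2 kb flanks Serpina3n (1.51), Serpinf1 (-2.86) and Serping1 (0.0014). Leaving out 1 library turned 10 of 112 values in 8 results. Their ranges were -1.54 to 3.67 in Serpina12, -0.671 to 3.95 in Serpina1e, -1.97 to 0.301 in Serpinb6a, -2.48 to 0.584 in Serpinc1, -1.06 to 0.799 in Serpine2, -1.65 to 2.14 in Serpinf1, -2.83 to 5.81 in Serpinf2 and -9.72 to 0.0172 in Serping1.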

Other observations

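The serpin tile whose libraries of 1 genotype lay farthest apart was downstream of Serpina16, on chromosome 12 from 103665001 to 103666000. It read 38.8% and 8% in WT and 30.4% and 44.4% in KO, with replicate 1 first, on 67 to 79 reads over 3 CpGs. The WT libraries differed by 30.8 points, the widest such gap among the 94 serpin tiles, and the genotypes overlapped. In Serpinb3b, which had 2 analysed CpGs, both upstream of the start, the CpGs differed in opposite directions. The one at 107163098 read 72.7% and 76.5% in WT and 47.4% and 66.7% in KO, and the one at 107163147 read 69.2% and 65% in WT and 88.9% and 90.9% in KO, on 11 to 22 reads. Neither passed the threshold after adjustment (adjusted p = 0.739 for each, moderated quasi-binomial model). These features were chosen after their values were seen.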
